A study of Mus musculus with 16 samples.

Results

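The comparison set RNA from peroxide-treated Neuro 2a cells against RNA from untreated cells, in the unselected fraction of each. Its members are the 4 arrays titled Ox-total and the 4 arrays titled Basal-total, 8 of the 16 arrays of the study. Neuro 2a is a mouse neuroblastoma line, labelled here as strain C57BL/6J. The study extracted RNA with TRIzol, coupled the aldehyde reactive probe (ARP, a biotin reagent) to abasic sites, and captured labelled RNA on streptavidin beads.

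Ox-total is ARP-labelled RNA of cells given hydrogen peroxide, hybridised without capture. Basal-total is ARP-labelled RNA of untreated cells, also without capture. Ox-ARP and Basal-ARP, with 4 arrays each, are the bead-captured fractions of treated and untreated cells and are used only for values set beside those of total RNA. All groups carried the ARP label, so no group shows RNA without it. Peroxide dose and exposure time are not stated in the sources used here. The model is 1 cell line, and nothing in the labels says that the arrays of a group came from separate cultures. The p-values therefore measure the spread between these samples, which may be technical. Fewer cells of a type and less RNA per cell cannot be told apart in such bulk RNA.

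Hydrogen peroxide is a diffusible oxidant that cells remove with catalase, glutathione peroxidases and peroxiredoxins. Stress sensing by NRF2, p53 and NF-kappaB can change the transcription of antioxidant, growth arrest and inflammatory genes, and oxidants also damage RNA itself. In proliferating cells the replication-dependent histone genes are transcribed mainly in S phase, and their mRNAs end in a stem-loop in place of a poly(A) tail. RNA-binding proteins such as TDP-43 control the splicing and stability of long neuronal transcripts.

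Levels are log2 bead intensities after background correction and quantile normalization, and a difference is the Ox-total mean minus the Basal-total mean on that scale, with limma's standard error (SE) and 4 arrays in each group. A call, or a gene that passed, means a limma p under 0.05 after Benjamini-Hochberg adjustment over 8072 features, of which 7464 were named genes. Array mean signals ranged from 380.9 to 525 in Ox-total and from 395.3 to 532.8 in Basal-total, and averaged 460.6 ± 65.1 and 435.4 ± 65.6 (SD, n = 4 arrays each, exact permutation p = 0.657, two-sided). The smallest p that 70 splits allow is 0.0286. Detected probes numbered 10351 to 10871 of 25697 on the Ox-total arrays and 10650 to 10848 on the Basal-total arrays. Each chip held 2 arrays of each group, always at different positions, so array position and treatment cannot be told apart. Of 22 neuroblastoma markers on the array 17 were detected on all 8 arrays, whereas Mycn, Tubb3, Nefl and Nefm were detected on none. Of 26 markers of fibroblasts, macrophages, glia, epithelial and endothelial cells, 2 (Mbp and Krt8) were detected on all 8 arrays and 19 on none. Summed linear levels of the neuroblastoma markers were 22410 to 23250 in Ox-total and 22490 to 23540 in Basal-total.

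**Figure D1:**
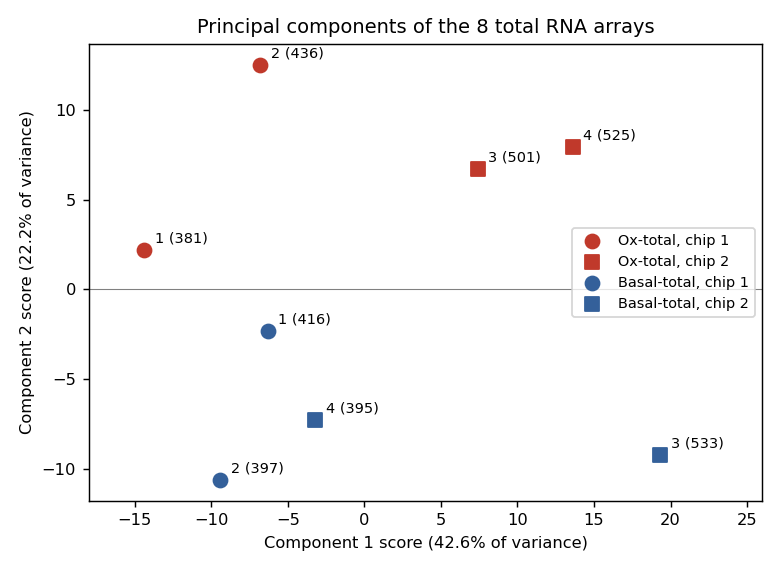
Scores of the 8 total RNA arrays on the first component (x axis, 42.6% of variance) and the second (y axis, 22.2% of variance) over all genes tested. Colour marks the group, shape the chip, and labels give the replicate with its mean signal in brackets. The second component is positive on all 4 Ox-total arrays (2.19 to 12.5) and negative on all 4 Basal-total arrays (-10.6 to -2.32), and the 3 arrays with the highest mean signals (501 to 533) lie at the right.

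Peroxide left most transcript levels near those of untreated cells. The median absolute difference was 0.10 log2 units and the 95th percentile 0.33, against a median SE of 0.12. In all, 25 of 8072 features passed (0.31%), 5 higher (0.0619%) and 20 lower (0.248%). The 5 raised features were the histone H4 genes H4c12 and H4c6 with Lrrc29, Tpt1 and Zbtb2. The 20 lowered features were 14 named genes and 6 probes without a symbol, whose differences ran from -1.22 to -0.48. Changes beyond 2-fold were seen for 5 features, all lower, and changes beyond 1.5-fold for 12 higher and 44 lower, called or not. For each of the 25 called features the 4 Ox-total values lay on 1 side of all 4 Basal-total values. This by itself fixes the same sign of the difference on both chips. Among all features, called or not, 238 features (2.95%) had all Ox-total values above, and 299 (3.7%) all below, the Basal-total values.

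Calls fell mainly on dim probes. With features in 4 equal groups by mean level, the dimmest group held 3 raised and 10 lowered calls, the next 2 and 7, the third 0 and 3, and the brightest 0 and 0. Of the 25 called features, 15 were detected on all 8 arrays and 7 on no array of 1 group. For the named genes among these 7, a difference is given as at least N-fold, the brighter group's mean set against a floor in the dimmer group. On each array this floor is the probe's own value, or the dimmest level of any detected probe there if that is higher.

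Single arrays decided some calls. Rps15a, Plekha5, Prr15, Nr6a1, Fcer2a, Tdp1, Lrrc29, Nfkbid, Tardbp and Zbtb2 passed whichever of the 8 arrays was left out. H4c12 did not pass without Ox-total replicate 3 (adjusted p = 0.062) or Basal-total replicate 2 (0.057). Nfkbiz did not pass without Ox-total replicate 1 (0.055) or Basal-total replicate 2 (0.057) or 3 (0.065). Tpt1 did not pass without Ox-total replicate 2 or 3 or Basal-total replicate 2 or 3 (highest 0.097, without Basal-total replicate 2). The other 6 calls were the most fragile. Rhbdl2 passed only without Ox-total replicate 4 or Basal-total replicate 1, Myt1l and Actn2 only without Ox-total replicate 1 or Basal-total replicate 1, Zfhx3 only without Basal-total replicate 1, Rep15 only without Basal-total replicate 4 and H4c6 only without Basal-total replicate 3. Their highest adjusted p-values were 0.088 for Rhbdl2, 0.186 for Myt1l, 0.191 for Actn2, 0.163 for Zfhx3, 0.174 for Rep15 and 0.138 for H4c6.

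**Figure D2:**
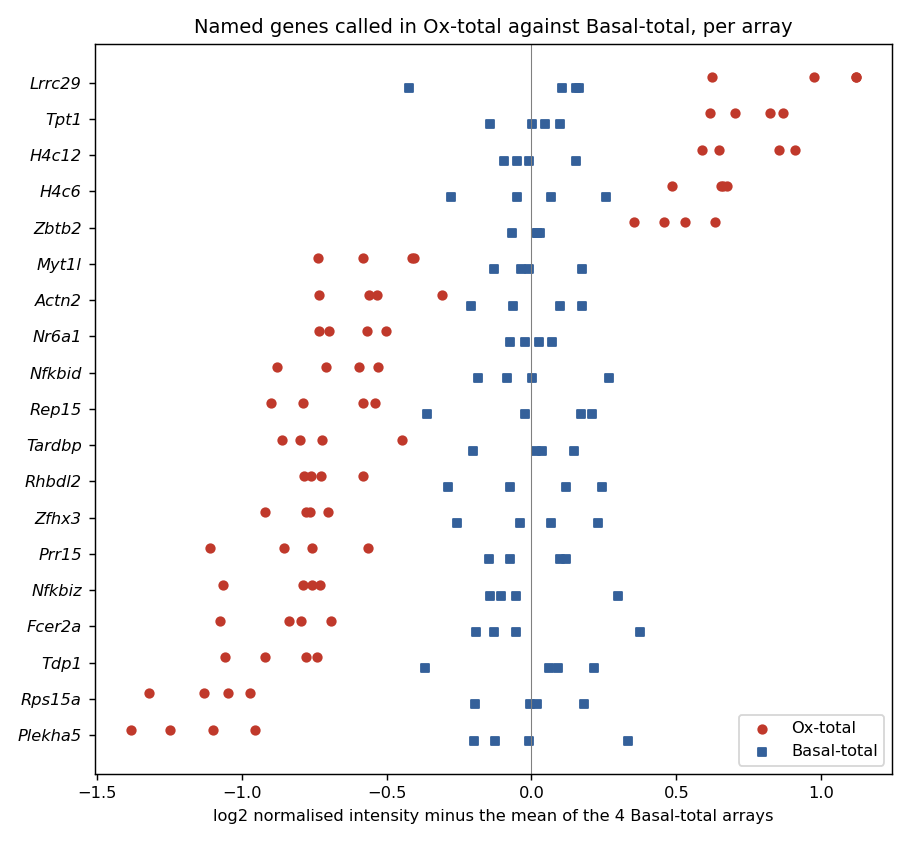
Each named gene called in Ox-total against Basal-total, with 1 point per array. The x axis is the log2 normalised intensity minus the mean of the 4 Basal-total arrays, circles are Ox-total and squares Basal-total arrays. In each of the 19 genes the circles lie on 1 side of all squares.

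Among raised genes, 2 of 8 tested histone H4 genes passed, beside 0.0619% of all features called higher. Both encode histone H4, the core histone that pairs with H3 in the nucleosome. H4c12 had 7.07, 7.13, 7.39 and 7.33 log2 units on the Ox-total arrays, against 6.47, 6.38, 6.43 and 6.63 on the Basal-total arrays. It rose by 0.75 ± 0.13 (adjusted p = 0.011), 1.68 times the level of untreated cells, and the lowest Ox-total array stood above the highest Basal-total array. H4c6 had 7.98, 7.81, 7.99 and 8.0 on the Ox-total arrays, against 7.28, 7.39, 7.58 and 7.05 on the Basal-total arrays. It rose by 0.62 ± 0.13 (adjusted p = 0.042). The Basal-total arrays were the more scattered of the 2 groups for H4c6. The coding sequences of H4 genes are near-identical, and whether each probe reads only its own gene was not tested.

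Other histone genes did not pass but showed groups apart, and 3 of them are given here. H2bc18 and H4c11 were named by a rule that asks for groups apart, and H4c18 by 1 that asks for a call with chip as a block. H2bc18, an H2B gene, had 6.63, 6.75, 6.68 and 7.04 on the Ox-total arrays, against 6.37, 5.95, 6.25 and 5.54 on the Basal-total arrays, a difference of 0.75 ± 0.16 (adjusted p = 0.0505). H4c11 had 7.67, 7.48, 7.63 and 7.37, against 6.96, 6.85, 6.69 and 6.92, a difference of 0.68 ± 0.16 (adjusted p = 0.074). H4c18 had 6.76, 6.77, 7.24 and 7.08, against 6.14, 5.86, 6.41 and 6.58, a difference of 0.71 ± 0.18 (adjusted p = 0.14). In all 3 genes each Ox-total array stood above each Basal-total array. With chip as a block, a refit of the same arrays, each of them passed, with adjusted p-values of 0.025, 0.026 and 0.0096. The separation of H2bc18 and H4c11 and the block call of H4c18 follow from these rules of choice and add no evidence.

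The 250 bases before the start of H4c12, H4c11, H4c6 and H2bc18 are shown so that these upstream sequences can be compared. Those of Rps15a, the gene with the smallest p of the comparison, are shown too, and those of H4c18 are not. The sequences are from RefSeq on mouse assembly GRCm38.p6, 5′ to 3′ on the gene's own strand: H4c12 at chr13:21750554-21750803 (minus strand), H4c11 at chr13:21734784-21735033 (plus), H4c6 at chr13:23551669-23551918 (minus), H2bc18 at chr3:96269450-96269699 (plus) and Rps15a at chr7:118116148-118116397 (minus). Capitals mark TATAA on the gene's strand, CCAAT on either strand (read as ATTGG on the other) and the octamer ATTTGCAT on either strand, and no 2 of the marked matches overlap.
H4c12: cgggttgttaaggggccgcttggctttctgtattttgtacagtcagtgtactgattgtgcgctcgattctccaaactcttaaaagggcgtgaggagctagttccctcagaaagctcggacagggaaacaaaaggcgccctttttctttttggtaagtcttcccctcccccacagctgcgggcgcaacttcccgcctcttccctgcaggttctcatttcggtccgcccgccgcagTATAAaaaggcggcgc
H4c11: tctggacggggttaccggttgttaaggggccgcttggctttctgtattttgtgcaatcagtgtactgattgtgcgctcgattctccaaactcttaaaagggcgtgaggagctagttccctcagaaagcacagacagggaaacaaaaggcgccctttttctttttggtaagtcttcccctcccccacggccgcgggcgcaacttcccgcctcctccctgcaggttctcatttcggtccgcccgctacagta
H4c6: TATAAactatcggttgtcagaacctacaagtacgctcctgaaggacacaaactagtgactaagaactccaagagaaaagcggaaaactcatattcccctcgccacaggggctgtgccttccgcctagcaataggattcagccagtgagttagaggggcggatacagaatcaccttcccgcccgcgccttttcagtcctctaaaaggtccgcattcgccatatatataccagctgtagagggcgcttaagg
H2bc18: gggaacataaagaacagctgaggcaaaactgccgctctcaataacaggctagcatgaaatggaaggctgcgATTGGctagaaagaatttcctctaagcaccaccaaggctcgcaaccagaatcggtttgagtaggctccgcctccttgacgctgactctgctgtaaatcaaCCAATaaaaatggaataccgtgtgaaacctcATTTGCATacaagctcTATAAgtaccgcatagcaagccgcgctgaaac
Rps15a: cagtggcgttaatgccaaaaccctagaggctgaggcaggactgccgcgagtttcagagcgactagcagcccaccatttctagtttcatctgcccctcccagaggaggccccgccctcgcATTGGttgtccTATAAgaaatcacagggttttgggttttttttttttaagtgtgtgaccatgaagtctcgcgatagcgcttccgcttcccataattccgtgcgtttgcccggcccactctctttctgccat

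Aligned without gaps, the windows of H4c12 and H4c11 were identical at 226 of 236 shared bases (95.8%), and those of H4c12 and H4c6 at 75 of 209 (35.9%). Of the H4 windows shown, that of H4c11 was thus close to that of H4c12, and that of H4c6 was not. In H4c6 the TATAA match lies at the 5′ end of the window, farthest from the gene start, and H4c11 holds 0 of the 3 motifs in its window. However, the last bases of the H4c11 window align with the first letters of the TATAA match of H4c12. The bases that would complete such a match in H4c11 lie outside the window and were not read. Of 27025 mouse promoter windows of the same length, 18.4% held TATAA, 37.5% held CCAAT and 1.81% held the octamer. Of the 6143 tested genes with a window, 9.72% held TATAA, 42.0% held CCAAT and 1.5% held the octamer. Among 31 histone genes with a window (of 34 tested), 48.4% held TATAA, 77.4% held CCAAT and 19.4% held the octamer. By class, CCAAT was in 7 of 7 H2B and 10 of 10 H2A windows and in 1 of 7 H4 windows, and the octamer was in 3 of 7 H2B and 3 of 10 H2A windows and in 0 of 7 H4 windows. A match describes letters in the window and not a site in use.

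As a group, the histone genes gave different values by class. Of 34 tested genes (52 on the array), 2 rose and 0 fell, beside 0.0619% and 0.248% of all features. All Ox-total values lay above the Basal-total values for 15 of them and below for 0, beside 2.95% and 3.7% of all features. The median difference was 0.33, beside 0.02 over all features, with medians of 0.32 and 0.33 on the 2 chips. Among 8 H4 genes the median was 0.51 and 6 were apart, among 6 H3 genes 0.43 and 4, and among 8 H2B genes 0.35 and 5. The 10 H2A genes had a median of 0.07 and 0 apart, with chip medians of -0.14 and 0.29. Their median SE was 0.23, against 0.13 for the H4 genes. The 2 tested genes of the linker histone H1 had differences of 0.43 and -0.12. Replication-dependent histone mRNAs have no poly(A) tail, and what the histone probes read in amplified RNA was not tested.

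Array by array the classes separated in the same way. Per array, the median over the H4 genes of the value minus the gene's mean on all 8 arrays was 0.18, 0.20, 0.39 and 0.26 in Ox-total, against -0.27, -0.29, -0.21 and -0.14 in Basal-total. For the H2B genes it was 0.27, 0.20, 0.14 and 0.06 in Ox-total, against -0.11, -0.29, -0.24 and -0.05 in Basal-total. For the H2A genes it was 0.16, -0.48, 0.13 and 0.38 in Ox-total, against -0.17, 0.10, 0.28 and -0.47 in Basal-total. For the H3 genes it was 0.28, 0.12, 0.10 and 0.13 in Ox-total, against -0.14, -0.16, -0.29 and -0.10 in Basal-total. The H4, H3 and H2B values kept the groups apart, and the H2A values overlapped, with Ox-total replicate 2 and Basal-total replicate 4 both low. No test of the difference between classes was made. The number of histone genes apart and higher was recomputed on other values, a check added after the values were seen. It was 16 with median scaling, 15 with cyclic loess, 14 with the authors' values and 8 without normalization between arrays.

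**Figure D3:**
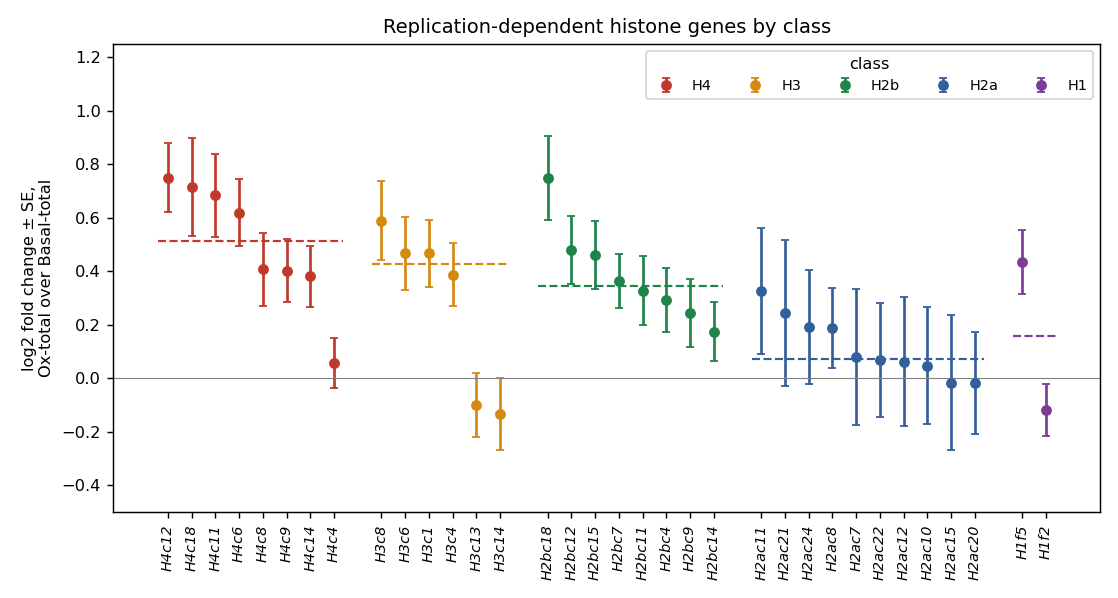
Difference of each of the 34 tested histone genes (y axis, log2 fold change, Ox-total over Basal-total), grouped by class on the x axis, with bars of 1 SE and dashed class medians. The H4, H3 and H2B medians lie at 0.51, 0.43 and 0.35, and the H2A median lies at 0.07.

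Genes of the cell cycle are given beside the histones because histone transcription follows S phase. Of 29 G1/S genes (the replication licensing and G1 cyclin genes) 0 passed in limma, 0 had an unadjusted p under 0.05 (over all features 4.17% did so above 0 and 6.16% below), and the median was -0.03 (positive with median scaling or without normalization, up to 0.03). Of these, 3 had all Ox-total values below the Basal-total values: Ccnd1, the cyclin D1 gene (-0.17 ± 0.08), Cdt1 (-0.13 ± 0.07) and Mcm10 (-0.11 ± 0.07). Over all features 3.7% were apart and lower and 2.95% apart and higher. Of 23 G2 and mitosis genes 0 passed in limma and 1 had an unadjusted p under 0.05, with a median of 0.11. In this list 3 genes were apart and higher: the mitotic kinase genes Plk1 (0.24 ± 0.09, adjusted p = 0.33) and Aurka (0.17 ± 0.08) and the kinesin gene Kif11 (0.16 ± 0.10). The list's median deviation per array ran from -0.011 to 0.087 in Ox-total and from -0.083 to -0.019 in Basal-total, without overlap. That of the G1/S genes ran from -0.076 to -0.003 in Ox-total and from -0.010 to 0.049 in Basal-total, with overlap. Of 10 genes for histone mRNA processing 0 passed and 0 were apart, with a median of 0.09. Cdt1, Mcm10 and Kif11, and below G3bp1, Hnrnpa2b1, Atxn2, Dst, Tdg and Sesn1, were named after their values were seen.

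The other raised genes had low or moderate levels. Lrrc29, which encodes a leucine-rich repeat protein, had 6.29, 6.78, 6.64 and 6.78 on the Ox-total arrays, against 5.83, 5.82, 5.77 and 5.24 on the Basal-total arrays, and was detected on 4 and 3 of them. It rose by 0.96 ± 0.14 (adjusted p = 0.0028), with 1 low Basal-total array. Zbtb2, a zinc finger gene of the BTB family, had 7.89, 7.72, 7.82 and 8.0 in Ox-total, against 7.29, 7.38, 7.39 and 7.38 in Basal-total. It rose by 0.49 ± 0.08 (adjusted p = 0.0076), and both groups were narrow. Tpt1, which encodes the translationally controlled tumor protein, had 5.56, 5.76, 5.80 and 5.64 in Ox-total, against 5.04, 4.79, 4.94 and 4.98 in Basal-total. Its probe was detected on 3 Ox-total and 0 Basal-total arrays, so that the rise of Tpt1 was at least 1.11-fold (adjusted p = 0.017). The mRNA is known to be abundant in many cells, and whether this dim probe reads the main transcript or a related copy was not tested.

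Rps15a had the smallest p of the named genes. Its product belongs to the small subunit of the ribosome, and it had 6.93, 7.01, 6.74 and 7.09 on the Ox-total arrays, against 8.06, 8.24, 7.86 and 8.08 on the Basal-total arrays. The gap between the groups was wider than the range within either, and Rps15a fell on its 1 probe by 1.12 ± 0.09 (adjusted p = 5.9e-06), to 0.461 times the level of untreated cells. Of 58 cytosolic ribosomal protein genes it alone passed, beside 0.31% of all features. The list's median was 0.01, with 2 genes at an unadjusted p under 0.05 above 0 and Rps15a alone below (4.17% and 6.16% over all features). Rpl21, of the large subunit, was apart on the other side with a difference of 0.26 ± 0.10 (adjusted p = 0.37). The Rps15a probe was dim for its list: its group means of 6.94 and 8.06 were among the lowest, whereas Rps3 had 13.97 and 13.79 and Rps6 12.84 and 12.92. Whether it reads the main transcript was not tested. Ribosomal protein genes have many processed copies in the mouse genome, and whether the Rps15a probe also reads such a copy was not tested.

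Nfkbiz and Nfkbid, which encode atypical nuclear IkappaB proteins, fell. IkappaB proteins bind and regulate the inflammatory transcription factor NF-kappaB. Nfkbiz, the gene of IkappaB-zeta, had 7.45, 7.76, 7.78 and 7.73 in Ox-total, against 8.41, 8.46, 8.81 and 8.37 in Basal-total. It fell by 0.84 ± 0.15 (adjusted p = 0.017), and no array of 1 group came within 0.5 log2 units of the other group. Nfkbid, the gene of IkappaBNS and not a member of the list of pathway genes, had 6.26, 6.44, 6.37 and 6.09 in Ox-total, against 7.23, 6.97, 6.88 and 6.78 in Basal-total. It fell by 0.68 ± 0.11 (adjusted p = 0.0067). The cytoplasmic inhibitor gene Nfkbia had 9.13, 8.88, 8.98 and 8.83, against 9.20, 9.34, 9.15 and 9.34, also without overlap, a difference of -0.31 ± 0.15 (adjusted p = 0.50). Nfkbib had -0.26 ± 0.13, with overlap. Of the 13 tested genes of the list 1 fell (Nfkbiz) and 0 rose, 2 had positive differences, and the median was -0.06. Among all features 0.248% fell, 0.0619% rose, 54.3% had positive differences and 3.7% were apart and lower.

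Tardbp, the gene of TDP-43, was lower on 1 of its 4 passing probes. That probe had 8.12, 7.85, 7.77 and 7.71 in Ox-total, against 8.59, 8.72, 8.37 and 8.61 in Basal-total, and fell by 0.71 ± 0.12 (adjusted p = 0.0076). The other 3 probes had differences of -0.01, -0.21 and -0.04. These 3 are annotated to 1 RefSeq transcript and the called probe to another. Among 24 genes for TDP-43, FET proteins and related RNA-binding proteins Tardbp alone fell, 0 rose, 6 had positive differences and the median was -0.11. By comparison, 0.248% of all features fell, 0.0619% rose and 54.3% had positive differences. Genes of this list apart and lower, as 3.7% of all features were, were Tardbp with the stress granule gene G3bp1 (-0.15 ± 0.08), Hnrnpa2b1 (-0.38 ± 0.24) and Atxn2 (-0.24 ± 0.16). Stau1, which encodes a double-stranded RNA-binding transport protein, was apart and higher (0.20 ± 0.08), and none of these 4 passed. Per array the list's median deviation overlapped between the groups: it ran from -0.18 to 0.18 in Ox-total and from -0.04 to 0.23 in Basal-total.

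Zfhx3, Nr6a1 and Myt1l fell, each encoding a DNA-binding protein. Zfhx3, a large homeobox and zinc finger gene, had 9.37, 9.23, 9.45 and 9.39 in Ox-total, against 9.89, 10.22, 10.38 and 10.11 in Basal-total, and fell by 0.79 ± 0.16 (adjusted p = 0.042). Its second probe had -0.77. Nr6a1, the gene of an orphan nuclear receptor known from germ cells and the early embryo, had 7.05, 7.12, 6.89 and 6.92, against 7.69, 7.6, 7.65 and 7.55, and fell by 0.63 ± 0.08 (adjusted p = 0.0011). Both groups were narrow for Nr6a1. Myt1l, a zinc finger gene of neurons, had 7.22, 7.23, 6.89 and 7.05, against 7.50, 7.80, 7.62 and 7.59, and fell by 0.53 ± 0.11 (adjusted p = 0.037).

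Zfhx3 also belongs to a list of genes with long mRNAs. Of its 18 tested genes 1 fell and 0 rose, 1 had a positive difference, and the median was -0.22. For all features these shares were 0.248% lower, 0.0619% higher and 54.3% positive. Apart and lower, as 3.7% of all features were, were Zfhx3, the cytoskeletal linker genes Plec (-0.29 ± 0.10, adjusted p = 0.28) and Dst (-0.44 ± 0.19), and Ank2, the ankyrin-B gene (-0.40 ± 0.14, adjusted p = 0.28). Per array the list's median deviation was -0.07, -0.08, -0.17 and -0.07 in Ox-total, against 0.004, 0.18, 0.2 and 0.10 in Basal-total, without overlap. Chip medians were -0.20 and -0.28.

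DNA repair genes held 1 call. Tdp1, whose enzyme frees topoisomerase I from DNA ends, had 5.41, 5.27, 5.45 and 5.13 in Ox-total, against 5.82, 6.28, 6.40 and 6.25 in Basal-total. It was detected on 0 Ox-total and 4 Basal-total arrays, a fall of at least 1.49-fold (adjusted p = 0.0027). Tdp1 passed the detection filter (every array of 1 group or more) only through the Basal-total group, where it was higher. In the list for base excision repair and the nucleotide pool, which starts repair of oxidised bases, 1 gene of 22 passed, Tdp1. The share over all features was 0.31%. Tdg, a thymine glycosylase gene, was apart and lower (-0.26 ± 0.10), the scaffold gene Xrcc1 was apart and higher (0.30 ± 0.11, adjusted p = 0.29), and the list's median was 0.02. Of 20 genes of double strand break repair 0 passed in limma, with 3 at an unadjusted p under 0.05 above 0 and 1 below. Over all features 4.17% had such a p above 0 and 6.16% below, and 2.95% were apart and higher and 3.7% lower. With chip as a block 1 gene of this list passed: Exo1, an exonuclease gene (-0.54 ± 0.19, adjusted p = 0.037 with the block), which was detected on 0 Ox-total and 1 Basal-total arrays. Exo1 passed the detection filter only through the Basal-ARP group.

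Plekha5, Rhbdl2 and Actn2 also fell. Plekha5, which encodes a pleckstrin homology domain protein, had 5.78, 5.63, 5.35 and 5.49 in Ox-total, against 6.72, 7.07, 6.61 and 6.53 in Basal-total, and fell by 1.17 ± 0.14 (adjusted p = 0.001). It was detected on 1 Ox-total array and 4 Basal-total arrays, and passed the detection filter only through the untreated groups. Rhbdl2, an intramembrane protease gene of the rhomboid family, had 9.15, 9.17, 9.21 and 9.36, against 9.65, 9.86, 10.18 and 10.05, and fell by 0.71 ± 0.14 (adjusted p = 0.024). Rhbdl2 and Zfhx3 were the brightest of the named called genes. Actn2, an alpha-actinin gene of muscle and synapses, had 6.28, 6.03, 6.06 and 5.86, against 6.39, 6.77, 6.53 and 6.69, and fell by 0.53 ± 0.11 (adjusted p = 0.045). The gap between the nearest arrays of the 2 groups was narrower for Actn2 than for any other called feature.

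The remaining 3 named genes were detected on 0 Ox-total and 4 Basal-total arrays each. They passed the detection filter only through the untreated groups, Basal-total and Basal-ARP. Prr15, a proline-rich protein gene, had 4.98, 5.34, 5.53 and 5.24 in Ox-total, against 6.21, 6.19, 6.02 and 5.95 in Basal-total, a fall of at least 1.4-fold (adjusted p = 0.0011). Fcer2a, the gene of the low affinity IgE receptor of B cells, had 5.07, 4.84, 5.11 and 5.22, against 5.78, 6.28, 5.86 and 5.72, a fall of at least 1.23-fold (adjusted p = 0.0011). Rep15, which encodes an effector of the endosomal GTPase RAB15, had 5.12, 5.48, 5.44 and 5.23, against 6.00, 6.19, 6.23 and 5.66, a fall of at least 1.33-fold (adjusted p = 0.037). These levels lie close to the detection limit, which was 5.50 to 5.71 on the Ox-total arrays and 5.51 to 5.59 on the Basal-total arrays.

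Classical peroxide response genes did not pass. The 15 stress and reference genes fixed for this purpose had differences from -0.22 to 0.40, with 0 called in limma and a lowest adjusted p of 0.24. Hmox1, the heme oxygenase gene and an NRF2 target, had 7.89, 7.81, 7.86 and 7.73 in Ox-total, against 7.62, 7.61, 7.34 and 7.72 in Basal-total. All Ox-total arrays stood above all Basal-total arrays, although the nearest almost touched, with a difference of 0.25 ± 0.10 (adjusted p = 0.41). Atf3, a stress-induced transcription factor gene, had 6.93, 7.17, 6.96 and 6.98, against 6.58, 6.62, 6.81 and 6.53, a difference of 0.37 ± 0.12 (adjusted p = 0.24). The immediate early gene Fos had 6.97, 7.45, 7.35 and 7.23, against 6.86, 6.75, 7.10 and 6.70, with overlap, a difference of 0.40 ± 0.13 (adjusted p = 0.24). Mdm2, a p53 target, had 10.97, 11.02, 11.11 and 10.98, against 11.15, 11.18, 11.38 and 11.24, lower without overlap (-0.22 ± 0.09, adjusted p = 0.41).

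Lists of these responses held 0 calls. Over all features 4.17% had an unadjusted p under 0.05 above 0 and 6.16% below, and 2.95% were apart and higher and 3.7% lower. Of 18 NRF2 targets 2 had an unadjusted p under 0.05 above 0 and 1 below, and the median was 0.03. Slc7a11, the cystine transporter gene, had -0.27 ± 0.13, opposite in sign to Hmox1. Of 20 p53 targets 0 and 4 had an unadjusted p under 0.05 above and below 0, and the median was -0.05. Mdm2 and Sesn1 (-0.21 ± 0.09) were apart and lower. Of 10 peroxide and superoxide enzyme genes 0 and 0 had an unadjusted p under 0.05, with a median of 0.09, and Prdx4, the peroxiredoxin of the endoplasmic reticulum, was apart and higher (0.11 ± 0.09). Of 29 genes of the integrated and ER stress responses 0 and 1 had an unadjusted p under 0.05, and the median was -0.06 (positive with median scaling or without normalization, up to 0.04).

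Nuclear genes of mitochondria had small positive differences. Of 70 mitochondrial ribosomal protein genes 0 passed in limma, 6 had an unadjusted p under 0.05, all above 0 (as 4.17% of all features did, with 6.16% below), and 63 had positive differences (90%, beside 54.3% of all features). Their median was 0.12, and 6 were apart and higher and 0 lower, beside 2.95% and 3.7% of all features. Per array their median deviation was 0.03, 0.09, 0.07 and 0.02 in Ox-total, against -0.04, -0.08, -0.11 and -0.004 in Basal-total, so the groups were apart by a margin smaller than their own ranges. Mrps35 (0.25 ± 0.09) and Mrpl30 (0.22 ± 0.08) had the smallest p of the list, both with overlap. Of 70 respiratory chain genes 0 passed in limma, 3 had an unadjusted p under 0.05, all above 0, and the median was 0.08, with Ndufa12 of complex I at 0.20 ± 0.08. These genes are short: the median genomic span was 7.69 kb for the mitochondrial ribosomal and 7.2 kb for the respiratory chain genes, beside 21.5 kb over all features and 152 kb for the genes with long mRNAs. In 4 equal groups by span, median differences were 0.07, 0.03, -0.01 and -0.05 for shortest to longest. The part of span in the list medians was not tested.

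**Figure D4:**
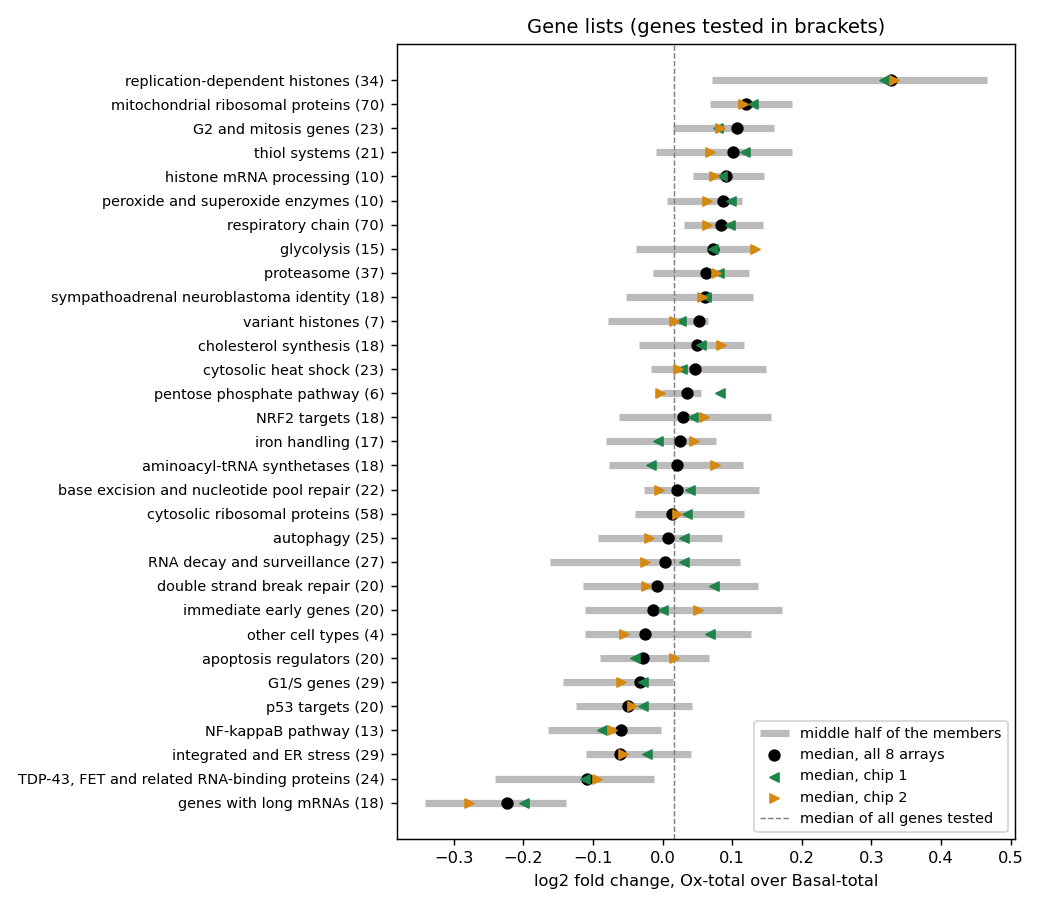
Median difference of each of 31 gene lists (x axis, log2 fold change, Ox-total over Basal-total) over all 8 arrays (circles) and on each chip (triangles), with grey bars from the lower to the upper quartile of the members. Histones lie farthest right at 0.33 and genes with long mRNAs farthest left at -0.22, with the median of all features at 0.02 as a dashed line.

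Of all 31 lists, 25 held 0 called genes and 21 had a positive median, and the sign of the median turned under at least 1 alternative for 15. Single members with the smallest p in lists without a call included Slc2a1, the glucose transporter gene (0.37 ± 0.10, adjusted p = 0.18), and the proteasome assembly gene Psmd9 (0.34 ± 0.10, adjusted p = 0.20), both apart and higher. Smg1, a kinase gene of nonsense-mediated decay, was apart and lower (-0.39 ± 0.12, adjusted p = 0.20), and Cnot7, a deadenylase gene, had -0.30 ± 0.10. The noradrenaline enzyme gene Dbh, a marker of the line's sympathetic origin, had 0.34 ± 0.11 (adjusted p = 0.26).

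Genes just outside the threshold did not pass and were picked for the smallest p with groups apart. That their groups are apart is thus the rule of choice and adds no evidence, and the chip block refits the same arrays. Over all features 2.95% were apart and higher and 3.7% lower. Rnu6, the U6 spliceosomal RNA, had 12.95, 12.82, 12.72 and 12.94 in Ox-total, against 12.51, 12.40, 12.31 and 12.19 in Basal-total, a difference of 0.51 ± 0.11 (adjusted p = 0.070). U6 RNA has no poly(A) tail and many genomic copies, and what its probe reads in amplified RNA was not tested. Higher without passing were also the kinetochore gene Spc24 (0.59 ± 0.14, adjusted p = 0.079), the SF3b splicing subunit gene Sf3b6 (0.56 ± 0.13), Id3, an inhibitor of helix-loop-helix factors (0.58 ± 0.14), the aldo-keto reductase gene Akr1b8 (0.39 ± 0.09, adjusted p = 0.072), Nme7 (0.40 ± 0.10), the tyrosine kinase gene Fer (0.34 ± 0.08) and Smim26 (0.35 ± 0.09). With chip as a block Spc24, Sf3b6, Akr1b8 and Fer passed (adjusted p from 0.017 to 0.036), and Id3, Nme7 and Smim26 did not (0.060 to 0.067). Lower without passing were Srek1, a splicing regulator gene detected on 1 Ox-total array (-1.29 ± 0.28, adjusted p = 0.057), Zfp704 (-0.55 ± 0.12, adjusted p = 0.051), the presynaptic gene Rims3 (-0.35 ± 0.07, adjusted p = 0.051) and the nuclear RNA decay gene Zfc3h1 (-0.58 ± 0.12). Srek1 passed the detection filter only through the Basal-total group. The zinc finger gene Zfp148 (-0.69 ± 0.15), Zfhx2, a relative of Zfhx3 (-0.61 ± 0.14), Prrc2b (-0.52 ± 0.12), Stimate (-0.49 ± 0.11) and Tmem145 (-0.44 ± 0.10) had adjusted p-values between 0.070 and 0.072. With chip as a block all 9 of these lower genes passed (adjusted p from 0.011 to 0.038). Rims3 showed the tightest groups of these, with 10.54, 10.45, 10.42 and 10.42 in Ox-total, against 10.87, 10.76, 10.82 and 10.80 in Basal-total.

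Taking the chip as a block raised the number of calls to 62, 15 higher (0.186%) and 47 lower (0.582%). All 25 calls of the analysis without the block were among them. Of the 37 added features, 10 were higher and 27 lower. All 37 had the same sign on both chips, which selection by this fit favours. They included H4c18, Rnu6 and H2bc18, described above, and the steroid dehydrogenase gene Hsd3b2 (-0.74 ± 0.17), Sox12, a SoxC transcription factor gene (-0.51 ± 0.12), and Msn, the moesin gene (-0.43 ± 0.12). Histone genes numbered 7 of the 62, of which 4 were H4 genes.

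The same treatment can be read in the captured fraction, which shares no array with the total RNA comparison but shares its fit, so that each gene has the same SE in both. Ox-ARP against Basal-ARP gave 2214 calls (27.4%), 1122 higher (13.9%) and 1092 lower (13.5%). Of the 20 features lowered in total RNA 19 were also lower after capture and 17 were called so, whereas of the 5 raised features 4 were also higher and 1, Tpt1, was called. The share of all features with the same sign in both fractions is not given here. Plekha5, Prr15, Fcer2a and Rep15 passed the detection filter only through Basal-total and Basal-ARP, where they were higher. Their lower values after capture were thus favoured by the filter and add no evidence. Tpt1 was detected on 4 Ox-ARP and 0 Basal-ARP arrays, a rise of at least 1.48-fold in captured RNA, and it passed the detection filter only through the Ox-ARP group. In captured RNA Rps15a had -1.58 ± 0.09, Nfkbiz -1.16 ± 0.15, Nfkbid -1.0 ± 0.11, Plekha5 -1.04 ± 0.14 and the called probe of Tardbp -0.71 ± 0.12, all called. The other passing probes of Tardbp had 0.53, -0.19 and -0.03 in captured RNA. H4c12 had 0.31 ± 0.13 (adjusted p = 0.083) and H4c6 0.02 ± 0.13 (adjusted p = 0.93). Over the histone classes, medians in captured RNA were 0.25 for H4, 0.14 for H3, -0.10 for H2B and 0.60 for H2A, beside 0.51, 0.43, 0.35 and 0.07 in total RNA.

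The interaction, the peroxide difference in captured RNA minus that in total RNA, tests whether the fractions differed. It passed for 125 features (1.55%), of which 3 were called in total RNA. Prr15 had a fitted difference of -0.15 ± 0.11 in captured RNA, an interaction of 0.67 ± 0.15 (adjusted p = 0.035). Its probe was detected on 0 Ox-total and 0 Ox-ARP arrays, so both differences and their contrast are taken against values below detection. Zbtb2 had -0.02 ± 0.08, an interaction of -0.52 ± 0.11 (adjusted p = 0.031), so its rise was seen in total RNA and its difference in captured RNA was smaller than its SE. Rhbdl2 had -1.52 ± 0.14, a larger fall than in total RNA, with an interaction of -0.80 ± 0.19 (adjusted p = 0.042). Among genes not called in total RNA, the interaction passed for Rnu6 (-0.78 ± 0.16, adjusted p = 0.020), Fos (-0.74 ± 0.18, adjusted p = 0.048) and Plk1 (-0.58 ± 0.12, adjusted p = 0.022), each higher in total and lower in captured RNA by its values. For Rps15a the interaction was -0.46 ± 0.13 (adjusted p = 0.081), and for H4c6 -0.60 ± 0.18 (adjusted p = 0.088). Unlabelled RNA was not taken through the beads in any group, so abasic sites and other retention on the beads cannot be told apart in the captured values.

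**Figure D5:**
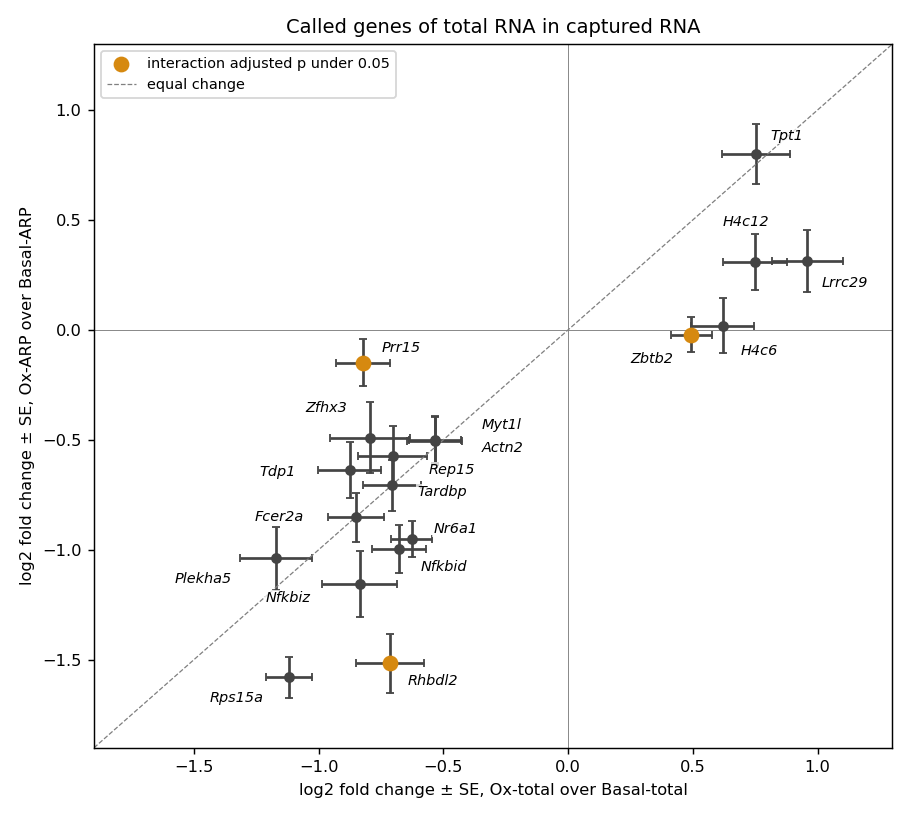
The 19 named called genes with the difference in total RNA (x axis, log2 fold change, Ox-total over Basal-total) and in captured RNA (y axis, Ox-ARP over Basal-ARP), with bars of 1 SE. Orange marks Prr15, Zbtb2 and Rhbdl2, whose interaction passed, and the dashed line marks equal change. Prr15, Fcer2a, Tdp1, Rep15 and Tpt1 were undetected in 1 group of each fraction, so their positions are fitted values and not bounds. The lowered genes lie below 0 on both axes, and Zbtb2 and H4c6 lie near 0 in captured RNA.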

How the data were processed

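The deposited scanner table gives, per the file headers, a bead intensity on a linear scale for 25697 probes on each array, without normalization between arrays, plus a detection p-value. Per the submitters' processing notes, GenomeStudio 2010.2 was used. The authors deposited processed intensity values of these arrays too. Each column is linear in its scanner column and has a mean of 376 and a median of 12.3 to 16.3, and 28.2% of all values lie below 0. These served as an alternative after a floor of 1. Their method of background subtraction is not given in the sources used here.

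Arrays were matched to groups by title and description. Intensities were background corrected with limma 3.58.1 in R 4.3.3 (normexp from detection p, offset 16), then quantile normalized on the log2 scale. The offset draws the differences of dim probes towards 0. The 10794 probes kept had detection p under 0.01 on every array of 1 group or more, and a gene with several (1974 genes) was represented by the brightest. Symbols came from the platform annotation (23978 probes with 1 symbol, 0 with several, 1719 with none), and 23962 probes matched RefSeq GRCm38.p6 by gene ID. The fit of group means used all 16 arrays (lmFit and eBayes, 12 residual and 5.34 prior degrees of freedom), so that the captured arrays help estimate the spread but not the difference. A Benjamini-Hochberg adjusted p under 0.05 over 8072 features was a call.

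The comparison, its 31 gene lists and the tests were chosen with earlier results of these data known. Named were all called genes with a symbol, in each list the called members and the 3 of smallest p, the 10 uncalled genes in each direction with the smallest p and no overlap, the 10 called with the chip block only, and 15 stress and reference genes. Predicted genes and some list members were left unnamed. The alternatives were 23: other background, normalization, filter, probe and array choices, blocks, weights and each array left out. The model was tested on simulated data. The number of arrays limits the precision.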

Additional observations from a re-analysis of the deposited data

Results flagged for a closer look

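Among 168 groups of 4 values, of the genes named and of the array measures, 12 held a sample far from the other 3 by Dixon's criterion, and chance alone gives about 1 in 20 groups. In Ox-total these were replicate 2 for H4c6 (7.8119 against 7.9809 to 8.0013 on the others), Fer (8.2466) and Prdx4 (13.51), replicate 1 for Fam184b (4.856) and Psmd9 (7.6602), and replicate 4 for Slc2a1 (10.354 against 10.232 to 10.234). In Basal-total they were replicate 4 for Lrrc29 (5.241 against 5.7689 to 5.8266), Mrps35 (9.1195) and Slc7a11 (7.7986), replicate 1 for Zbtb2 (7.2946), replicate 2 for Ank2 (8.1792), and replicate 3 for the array mean signal (532.8 against 395.3 to 416.2). All of these gene values are log2 levels.

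The peroxide difference in captured RNA minus that in total RNA passed limma's interaction test for 6 of the named genes: Prr15 (0.6726), Zbtb2 (-0.515), Rhbdl2 (-0.8025), Rnu6 (-0.7811), Fos (-0.7363) and Plk1 (-0.5821), all in log2 units. For Prr15 both peroxide-treated groups were below detection on every array.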

How the results depend on the processing

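Of 429 checks of the 19 named called genes under 23 alternatives, 289 kept the call, 140 lost it and 0 turned the direction. Of 1441 checks of genes not called, 112 passed and 0 turned. Of 712 checks of list medians 638 moved by less than the spread between same-numbered pairs and 74 by more, 16 of these with median scaling, 15 without normalization and 11 with the authors' values. Medians of histones, long mRNAs, mitochondrial ribosomal and respiratory chain genes kept their sign (0.232 to 0.387, -0.283 to -0.147, 0.104 to 0.207 and 0.0546 to 0.212). The calls in total RNA (25: 5 higher, 20 lower) became 16 with median scaling (10 lower, 6 higher, so 37.5% of calls were higher in place of 20%), 1 lower and 0 higher without normalization, 49 with the authors' values (44 lower), 10 on probes detected on all 8 total RNA arrays (2 and 8), 62 with the chip block (15 and 47) and 93 with array weights (27 and 66). On chip 1 alone limma called 1 gene (0 higher, 1 lower; 543 at an unadjusted p under 0.05), and on chip 2 alone 0 (522). Leaving out 1 array gave 13 to 29 calls, 2 to 7 higher and 11 to 22 lower. They were 14 without Ox-total replicate 3 and 13 without Basal-total replicate 2, and 13 were lower without Ox-total replicate 2 or Basal-total replicate 3. Captured calls (2214) became 937 without normalization, 715 on chip 1 and 700 on chip 2, and ran from 2105 to 2324 with 1 total RNA array left out. Interaction calls (125) became 5 without normalization, 218 with the authors' values, 526 with the chip block, 3 and 0 on chips 1 and 2, and 479 with array weights, and ran from 56 to 113 with 1 array left out. The causes were not tested. With the replicate number as a block the counts were 84 (23 higher, 61 lower), and 687 interactions. Deviations of same-numbered arrays correlated at 0.237, 0.212, 0.474 and -0.262, so the numbers were not taken as a pairing.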
